A study of Mus musculus with 12 samples.

Results

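The comparison described here sets MOK-knockout microglial cells against wild-type cells after both had received lipopolysaccharide (LPS). It uses 6 of the 12 libraries of the series, 3 per group, and every gene that could be tested was a member, 26420 in all. Wild-type (WT) cells were SIM-A9, a mouse microglial cell line labelled as strain C57BL/6, and the knockout (KO) cells were H14, a single line derived from SIM-A9 and labelled as lacking MOK. Both groups were exposed to LPS at 1 µg/mL for 5 h, and parallel cultures of each line received medium alone for 5 h, again with 3 libraries each. The labels call the 3 libraries of a group biological replicates without saying how the cultures were kept apart, so the p-values rest on the scatter among samples of 1 group, estimated over all 12 libraries, and that scatter may be technical. Only 1 KO line was sequenced, so what comes from the absence of MOK and what comes from other features of H14 cannot be told apart.

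LPS is a component of the outer membrane of Gram-negative bacteria that is sensed by Toll-like receptor 4 (TLR4). Signalling through the adaptor MyD88 activates NF-kB and MAP kinases and induces cytokine and chemokine genes, and signalling through TRIF activates IRF3 and induces interferon beta, which then acts through its receptor, JAK kinases and STAT factors on a large set of interferon-stimulated genes. MOK is a protein kinase with sequence similarity to the MAP kinase family, and microglia are the resident macrophages of the brain.

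Total counts were 43.5 to 72.9 M in the WT LPS libraries and 46.7 to 57.6 M in the KO LPS libraries. KO LPS replicate 2 stood apart, where genes lacking a symbol took 10.37% of counts, while their share was 5.17% to 8.16% in the other 5 LPS libraries. The transcripts of Mok, the targeted gene, were at 2.83, 2.17 and 2.50 CPM (counts scaled to library size, here with TMM factors) in the WT LPS libraries and at 1.70, 1.54 and 1.32 CPM in the KO LPS libraries. All KO values lay below all WT values, the log2 fold change was -0.72 ± 0.19 (SE, edgeR adjusted p = 0.0177), and the adjusted p rose to 0.0785 when WT LPS replicate 1 was left out, to 0.0515 when WT LPS replicate 3 was, and to 0.0753 when KO LPS replicate 3 was. Since reads are summed over the whole gene, an edit within the transcripts still present would not be seen. Of 16 marker genes of microglia and macrophages, the summed level (CPM of the library total, without TMM) was 2100 to 2326 in WT LPS and 1477 to 1980 in KO LPS. 5 of the 16 were lower in KO, namely Itgam, Lyz2, Csf1r, Adgre1 and Cd14, and none were higher. Of all protein-coding genes whose log2 CPM averaged 2 or more, 24.3% were lower. The markers not called included Cd68, Ptprc, Spi1, Tyrobp, Fcer1g and Trem2. P2ry12 and Tmem119, which define homeostatic microglia, stayed under 1 CPM in all 6 libraries. Itgam, Lyz2 and Csf1r share 68.33%, 32.81% and 14.95% of their 31-base words (stretches of the transcript sequence) with other genes and are less certain. In bulk RNA, fewer cells of a type and less RNA per cell cannot be told apart. Among markers of other cell types, the summed level of the B cell genes was 7.12 to 10.6 CPM in WT LPS and 101.1 to 119.6 CPM in KO LPS, nearly all of it from Ighm, the heavy chain of immunoglobulin M. The 2 called B cell genes, both higher, were Ighm and Cd79b. Cd79b was at a mean of 0.355 CPM in WT and 0.675 CPM in KO (log2 fold change 0.84, edgeR adjusted p = 0.0496). The 6 B cell markers other than Ighm were under 1 CPM in all 6 libraries. Dendritic cell markers summed to 79.0 to 80.8 and 48.0 to 72.7 CPM (2 genes higher, 2 lower), astrocyte markers to 130.4 to 161.7 and 65.3 to 122.5 CPM (none called), T and NK cell markers to 9.37 to 10.2 and 13.8 to 22.2 CPM (none called) and oligodendrocyte markers to 9.31 to 10.2 and 16.1 to 18.0 CPM, with Mbp higher. The dendritic cell, astrocyte and T and NK cell sums came mostly from 1 gene each. Bst2 was at means of 75.8 CPM in WT LPS and 52.9 CPM in KO LPS. Aldoc was at 147.6 and 96.1 CPM and Cd3e at 8.08 and 16.7 CPM. The part of these cell types in the results below was not tested.

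Under LPS, 2080 genes were higher and 3351 genes were lower in KO than in WT (edgeR, Benjamini-Hochberg adjusted p under 0.05 over 26420 genes), which is 7.87% and 12.7% of the genes tested and 20.6% in either direction. Among the 16173 protein-coding genes 29.1% were called, 17.9% lower and 11.2% higher, and among the 9805 of them whose log2 CPM averaged 2 or more, called expressed here, 2385 (24.3%) were lower and 1374 higher. The gene lists described here name protein-coding genes in the main, so their counts are to be read beside these shares as well. The lower genes also reached larger differences: 480 were at least 4-fold lower and 131 at least 16-fold lower, against 102 and 6 at least as much higher. The median log2 fold change of all genes was 0.07. Of the called genes 38.3% were higher in KO, and this share became 49.9% (2922 higher and 2936 lower) when libraries were scaled by their size alone, with a median of 0.14. The number of higher genes was 1382 without WT LPS replicate 1, and without KO LPS replicate 2, the library that stood apart, 1914 genes were higher and 3196 lower.

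**Figure D1:**
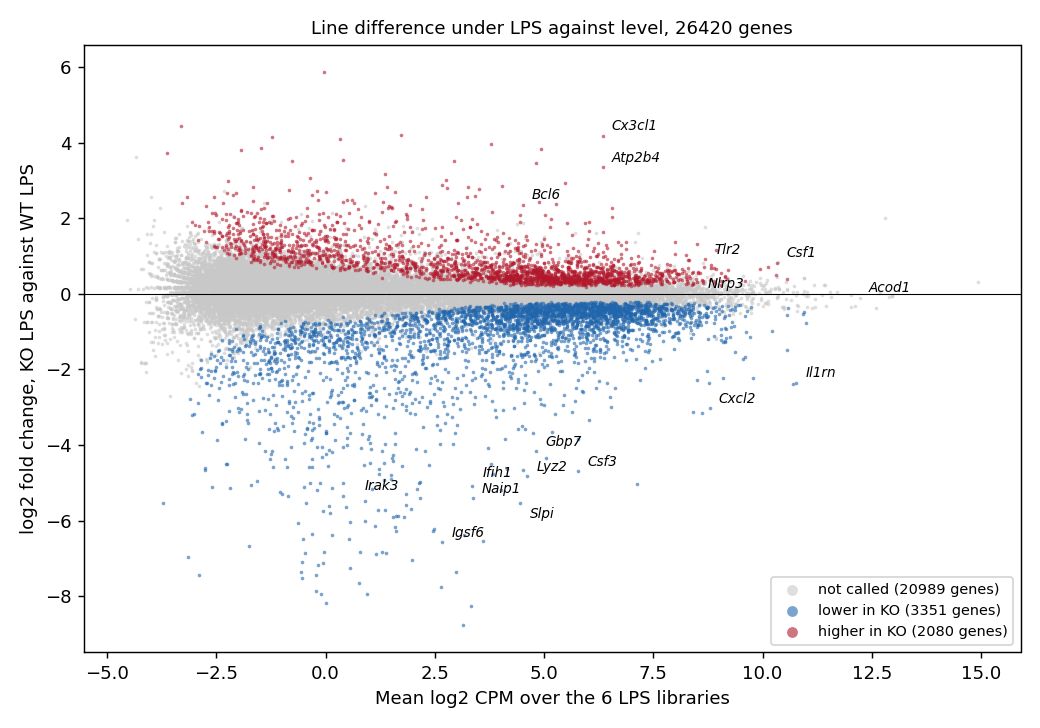
Log2 fold change of KO LPS against WT LPS (y axis) against the mean log2 CPM over the 6 LPS libraries (x axis), 1 point per gene; blue points are the 3351 genes called lower and red points the 2080 genes called higher in KO, grey points were not called. The lowest blue points lie farther from 0 than the highest red points, and among the labelled genes Igsf6 at -6.57 and Cx3cl1 at 4.18 are the extremes.

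Among the largest losses were a myeloid surface protein, a protease inhibitor and a brake on Toll-like receptor signalling. Igsf6, an immunoglobulin superfamily protein of myeloid cells, was at 72.1, 65.6 and 48.4 CPM in the WT LPS libraries and at 0.739, 0.790 and 0.400 CPM in the KO LPS libraries. Slpi, a secreted inhibitor of leukocyte serine proteases, was at 167.8, 134.8 and 143.3 CPM in WT, against 3.06, 3.81 and 2.71 CPM in KO. In both genes every KO library was far below every WT library, and the log2 fold changes were -6.57 ± 0.27 for Igsf6 (SE, edgeR adjusted p = 4.19e-08) and -5.54 ± 0.20 for Slpi (adjusted p = 1.99e-08). Irak3, a kinase-dead member of the IRAK family that restrains Toll-like receptor signalling, was at 27.4, 24.7 and 21.7 CPM in WT, against 0.782, 0.919 and 0.589 CPM in KO. It was thus 32.0-fold lower (log2 fold change -5.00 ± 0.22, adjusted p = 5.53e-08). Naip1, a sensor of bacterial secretion-system proteins in the NAIP and NLRC4 inflammasome, was at 66.4 ± 10.1 CPM in WT against 1.58 ± 0.122 CPM in KO (SD, n = 3), with 44.26% of its 31-base words shared with other genes, so reads of its paralogs may count for it. Its partner Nlrc4 was at 11.5 ± 0.417 and 2.47 ± 0.378 CPM, 4.67-fold lower. Mmp12, the macrophage elastase, was at 24.8 ± 8.14 CPM in WT against 0.795 ± 0.212 CPM in KO, and Lyz2, the macrophage lysozyme, at 131.1 ± 24.6 and 4.65 ± 0.525 CPM. Mmp12 and Lyz2 share 6.59% and 32.81% of their 31-base words with other genes and are less certain for that reason. The libraries of the groups did not overlap for any of these genes, but genes named for the largest differences were chosen on that condition. It held for 38.9% of all genes tested and for 3339 of the 3351 genes called lower.

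The genes with the largest gains carried smaller differences. Cx3cl1 encodes fractalkine, a membrane-bound chemokine whose receptor marks microglia. It was at 24.3, 16.7 and 17.4 CPM in the WT LPS libraries and at 391.9, 246.7 and 418.1 CPM in the KO LPS libraries. The groups lay far apart, with a log2 fold change of 4.18 ± 0.24 (edgeR adjusted p = 5.44e-07). Atp2b4, a plasma membrane calcium pump, was at 32.0, 20.2 and 28.3 CPM in WT, against 353.2, 138.6 and 327.2 CPM in KO, with KO replicate 2 the lowest of its group but still above WT (3.35 ± 0.40, adjusted p = 0.000165). Between these 2 in size of difference were Ptgds, a prostaglandin D2 synthase, at 3.55 ± 0.475 CPM in WT against 54.8 ± 16.5 CPM in KO (3.95), Ighm at 8.27 ± 2.06 and 116.7 ± 12.4 CPM (3.82), Ip6k3, an inositol hexakisphosphate kinase, at 2.44 ± 0.261 and 27.7 ± 14.9 CPM (3.50) and Tns1, a protein of focal adhesions, at 8.69 ± 0.557 and 95.7 ± 37.6 CPM (3.46). Arhgef3, a guanine nucleotide exchange factor, was at 16.5 CPM in WT against 126.7 CPM in KO (2.94 ± 0.32, adjusted p = 7.50e-05). Receptors were among these genes: P2rx1, an ATP-gated cation channel (2.36 ± 0.386 CPM in WT against 17.3 ± 5.15 CPM in KO), and Vipr1, a receptor for vasoactive intestinal peptide (2.01 ± 0.209 and 11.8 ± 1.90 CPM). Maml2, a coactivator of Notch, was 6.80-fold higher. Cd276, a checkpoint ligand also called B7-H3, was at 19.1 ± 2.21 CPM in WT against 64.9 ± 10.9 CPM in KO (1.76 ± 0.17, adjusted p = 2.28e-05), and shares 10.49% of its 31-base words with other genes.

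**Figure D2:**
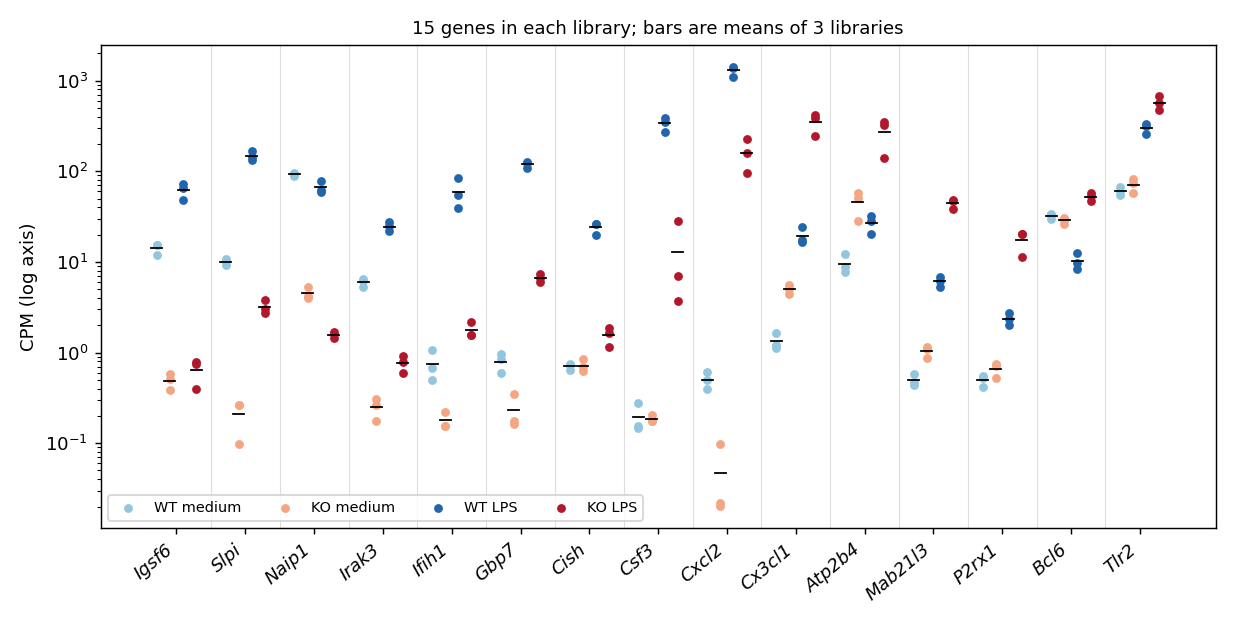
CPM in each library (log axis) for 15 genes in the 4 groups of the series; each dot is 1 library and each black bar the mean of 3. In all 15 genes the 3 KO LPS dots lie on 1 side of the 3 WT LPS dots, below them from Igsf6 to Cxcl2 and above them from Cx3cl1 to Tlr2.

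Among receptors of the LPS response, 7 of the 16 measured genes of the LPS receptor complex and Toll-like receptors were lower and 1 was higher in KO, with a median log2 fold change of -0.69. The higher one was Tlr2, the receptor for bacterial lipoproteins, at 314.7, 261.2 and 330.2 CPM in WT, against 670.8, 474.7 and 572.7 CPM in KO (0.92 ± 0.16, edgeR adjusted p = 0.00136). Its dimer partners went the other way: Tlr1 was at 32.4 ± 2.65 and 12.4 ± 1.50 CPM and Tlr6 at 18.7 ± 1.26 and 7.78 ± 1.06 CPM in WT and KO (log2 fold changes -1.39 and -1.27). Tlr1 and Tlr6 share 20.02% and 16.61% of their 31-base words with other genes, and Ticam2, named next, 15.83%. Of 21 adaptors and kinases, 8 were lower and 3 higher (median -0.03). Besides Irak3, the lower ones included Traf6, the ubiquitin ligase downstream of MyD88 (58.7 ± 4.17 and 27.5 ± 3.35 CPM, log2 fold change -1.10), and Ticam2, the adaptor that brings TRIF to TLR4 (12.7 ± 2.14 and 5.19 ± 1.66 CPM, -1.30). Ripk2, the kinase of NOD receptor signalling, was higher, at 75.7 ± 7.07 CPM in WT against 157.6 ± 31.6 CPM in KO (1.06 ± 0.14, adjusted p = 0.000206). Of 27 NF-kB subunits and feedback genes 7 were lower and none higher, at a median of -0.11, a share of lower genes near the 24.3% of expressed protein-coding genes, and 4 were lower without WT LPS replicate 3 and 3 were higher without KO LPS replicate 2. In medium 5 of the 16 receptor genes and 8 of the 21 adaptors and kinases were lower, beside 23.4% of expressed protein-coding genes.

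In 4 lists of genes that interferon induces, most members were lower in KO. Of 23 measured IFIT and OAS family genes and their antiviral companions 21 were lower and none higher (median log2 fold change -2.27), of 18 guanylate-binding proteins and immunity-related GTPases 15 were lower and none higher (-1.99), and of 18 Schlafen and TRIM genes 17 were lower and none higher (-1.96). Of 18 sensors of foreign nucleic acid 16 were lower and none higher (-1.53). The share called lower was 12.7% of all genes and 24.3% of expressed protein-coding genes. In medium 10, 4, 3 and 8 genes of these 4 lists, in the same order, were lower in KO, and 1, 1, 3 and 0 were higher. The medium shares of expressed protein-coding genes were 23.4% lower and 8.79% higher. Other lists of the response were more mixed. Of 12 genes of the ISG15 system and of interferon-induced PARPs 8 were lower and 1 higher (-0.89), with 5 lower without WT LPS replicate 1, and the higher one was not called without KO LPS replicate 2, KO LPS replicate 3, WT LPS replicate 1 or WT LPS replicate 2. Of 11 interferon regulatory factors 4 were lower and 1 higher (-0.21), and the higher one was not called when any library other than KO LPS replicate 2 was left out, while 3 were higher without that library. Of 21 genes of MHC class I presentation 6 were lower and none higher, at a median of -0.11, with 3 lower without WT LPS replicate 1 and 1 higher without KO LPS replicate 2. Usp18, which removes ISG15 from proteins and dampens the interferon receptor, was at 146.4 ± 9.08 CPM in WT against 49.7 ± 17.6 CPM in KO (-1.56 ± 0.23). Isg20, an interferon-induced exonuclease, was at 29.9 ± 2.64 CPM in WT against 1.92 ± 0.377 CPM in KO (-3.96 ± 0.19, edgeR adjusted p = 1.02e-07). Gbp7 was at 123.8, 127.6 and 107.5 CPM in the WT libraries and at 7.32, 6.07 and 6.64 CPM in the KO libraries (-4.16 ± 0.19, adjusted p = 8.77e-08), and Gbp5 at 81.5 ± 10.5 and 6.88 ± 1.07 CPM. Both belong to the GTPases that attack vacuoles of pathogens, and no KO library came near the WT range. Ifih1, the cytosolic sensor of long double-stranded RNA also called MDA5, was at 84.7, 54.8 and 39.8 CPM in WT, against 2.17, 1.56 and 1.58 CPM in KO, a 33.7-fold difference (adjusted p = 1.72e-06). Stat2, which carries the signal of the type I interferon receptor, was at 130.8 ± 5.27 and 31.1 ± 8.09 CPM (log2 fold change -2.07). Gbp7 and Cish share 14.7% and 10.41% of their 31-base words with other genes. Of the 19 interferon receptor and JAK-STAT genes 7 were lower and 3 higher, and none of those higher genes were called without KO LPS replicate 1, KO LPS replicate 3 or WT LPS replicate 2, with 1 gene higher without WT LPS replicate 3. Cish, a SOCS family inhibitor that STAT5 induces, was at 26.2, 26.3 and 19.7 CPM in WT, against 1.87, 1.14 and 1.63 CPM in KO (-3.96 ± 0.21, adjusted p = 2.44e-07).

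Cxcl10, the T cell chemokine, was at 1198 ± 197.5 CPM in WT against 255.6 ± 50.1 CPM in KO. The promoters of Cxcl10, Ifih1, Gbp5 and Cish are shown because they carry the sequence elements through which STAT and IRF factors are known to act. Each is the RefSeq window from 250 bases before to 50 bases after the gene's start on GRCm38.p6, read 5′ to 3′ on the gene's own strand. Capitals mark the interferon-stimulated response element core (GAAA, any 2 bases, GAAA) in Cxcl10 and Ifih1 (and, on the other strand, in Gbp5), the gamma-activated sequence TTCNNNGAA in Gbp5 and Cish, and in Cxcl10 also the kB consensus.
Cxcl10, chr5:92348840-92349139, minus strand: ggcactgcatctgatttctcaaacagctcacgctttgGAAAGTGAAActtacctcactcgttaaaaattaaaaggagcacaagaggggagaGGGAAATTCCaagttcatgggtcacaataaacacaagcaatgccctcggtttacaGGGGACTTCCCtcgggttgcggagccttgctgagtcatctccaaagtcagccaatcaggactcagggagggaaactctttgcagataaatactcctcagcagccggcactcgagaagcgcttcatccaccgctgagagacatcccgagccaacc
Ifih1, chr2:62646206-62646505, minus strand: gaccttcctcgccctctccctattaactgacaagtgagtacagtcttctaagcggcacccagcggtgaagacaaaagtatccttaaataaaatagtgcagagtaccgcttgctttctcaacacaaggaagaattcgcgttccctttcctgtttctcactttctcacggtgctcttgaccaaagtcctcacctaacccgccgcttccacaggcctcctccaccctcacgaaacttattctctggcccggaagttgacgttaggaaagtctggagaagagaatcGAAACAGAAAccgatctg
Gbp5, chr3:142496684-142496983, plus strand: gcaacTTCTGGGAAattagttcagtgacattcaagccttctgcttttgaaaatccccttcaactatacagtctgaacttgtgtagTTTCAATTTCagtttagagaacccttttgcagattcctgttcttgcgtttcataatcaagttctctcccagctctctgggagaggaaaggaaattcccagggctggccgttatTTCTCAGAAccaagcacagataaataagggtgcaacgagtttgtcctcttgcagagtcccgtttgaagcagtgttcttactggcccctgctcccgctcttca
Cish, chr9:107296409-107296708, plus strand: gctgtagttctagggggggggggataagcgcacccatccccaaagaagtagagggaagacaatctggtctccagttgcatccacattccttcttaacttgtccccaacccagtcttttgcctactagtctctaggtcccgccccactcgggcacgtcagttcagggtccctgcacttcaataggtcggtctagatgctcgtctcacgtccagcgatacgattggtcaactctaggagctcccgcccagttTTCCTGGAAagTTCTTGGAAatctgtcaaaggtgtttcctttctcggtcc
In the Cxcl10 window the response element begins 213 bases before the start and the kB matches begin 159, 104 and 103 bases before it, the last pair overlapping. The Gbp5 window holds a response element 165 bases before the start and gamma-activated sequences 245 and 52 bases before it, and the Cish window holds a pair of gamma-activated sequences, 1 of them at the start itself. Both strands were searched. Only the elements named for each gene were marked, and a kB match in the Gbp5 window, ggaaattccc, was left in lower case. The response element core occurred in 3.14% of the 17470 promoter windows of genes tested, in 8.38% of the 1062 windows of genes at least 2-fold lower in KO and in 3.09% of the 485 windows of genes at least 2-fold higher. For the kB consensus these shares were 10.3%, 11.2% and 10.5%, and for the AP-1 site TGANTCA 6.01%, 9.98% and 8.25%. The gamma-activated sequence occurred in 1223 of the same 17470 windows, in 92 of 1062 (8.66%) and in 20 of 485 (4.12%). A window was available for 13875 of 26144 gene symbols tested. A match describes letters in the window only.

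Cytokines and growth factors were lower in part, to be read beside the 12.7% of all genes and 24.3% of expressed protein-coding genes called lower. Of 25 interleukins and their receptors 14 were lower and 2 higher (median log2 fold change -0.94), and neither higher gene was called without KO LPS replicate 1, KO LPS replicate 3, WT LPS replicate 1 or WT LPS replicate 2, with 1 gene higher without WT LPS replicate 3. Il1rn, the antagonist of the interleukin-1 receptor, was at 4492, 3951 and 3505 CPM in WT, against 889.3, 871.1 and 585.7 CPM in KO (-2.35 ± 0.20, edgeR adjusted p = 6.89e-06). Il27, a subunit of interleukin-27, was at 11.9 ± 2.45 and 1.78 ± 0.370 CPM. Of 13 colony-stimulating factor and receptor genes 5 were lower and 2 higher (-0.55), neither higher one was called when any library other than KO LPS replicate 2 was left out, and 3 were higher without that library. Csf1, the macrophage growth factor, was at 967.3, 971.0 and 1008 CPM in WT, against 2096, 1232 and 1888 CPM in KO. All KO values lay above all WT values (0.82 ± 0.21, adjusted p = 0.0167), but the adjusted p was 0.0747 without KO LPS replicate 1, 0.0628 without KO LPS replicate 3, and 0.0603, 0.0576 and 0.0523 without WT LPS replicates 1, 2 and 3. Csf3, which encodes the granulocyte growth factor G-CSF, was at 391.9, 348.7 and 270.9 CPM in WT, against 6.93, 28.4 and 3.70 CPM in KO. KO replicate 2 was the highest of its group and still far below WT (-4.69 ± 0.64, adjusted p = 0.000411), and the receptor gene Csf3r was also lower, at 14.1 ± 2.61 and 2.54 ± 0.777 CPM. Il27, Csf3r and Cxcl2 share 7.37%, 23.13% and 7.59% of their 31-base words with other genes. Of 11 CXC chemokine genes 5 were lower and 2 higher (median -0.40). Cxcl2, which attracts neutrophils, was at 1431, 1366 and 1110 CPM in WT, against 158.6, 228.2 and 94.9 CPM in KO, 8.11-fold lower (adjusted p = 2.53e-05). Some strongly expressed response genes did not pass the test: Acod1, the itaconate-producing enzyme, was at 5013 ± 384.8 and 4669 ± 1054 CPM (-0.10 ± 0.22, adjusted p = 0.843) and Nlrp3, an inflammasome sensor, at 369.5 ± 36.5 and 375.0 ± 38.9 CPM (0.02 ± 0.14, adjusted p = 0.953). Ptgs2, which starts prostaglandin synthesis, was at 1940 ± 477.2 and 410.1 ± 54.6 CPM (-2.24), whereas Hpgds, the synthase that makes prostaglandin D2, was at 43.9, 39.4 and 34.3 CPM in WT, against 103.9, 106.0 and 109.1 CPM in KO (1.44 ± 0.12, adjusted p = 7.92e-06). Hdc, which makes histamine, was at 16.1, 15.1 and 10.8 CPM in WT, against 2.37, 1.75 and 1.77 CPM in KO. Cd274, the checkpoint ligand PD-L1, was at 96.2 ± 4.89 and 30.5 ± 8.46 CPM (-1.66), with 14.56% of its 31-base words shared.

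**Figure D3:**
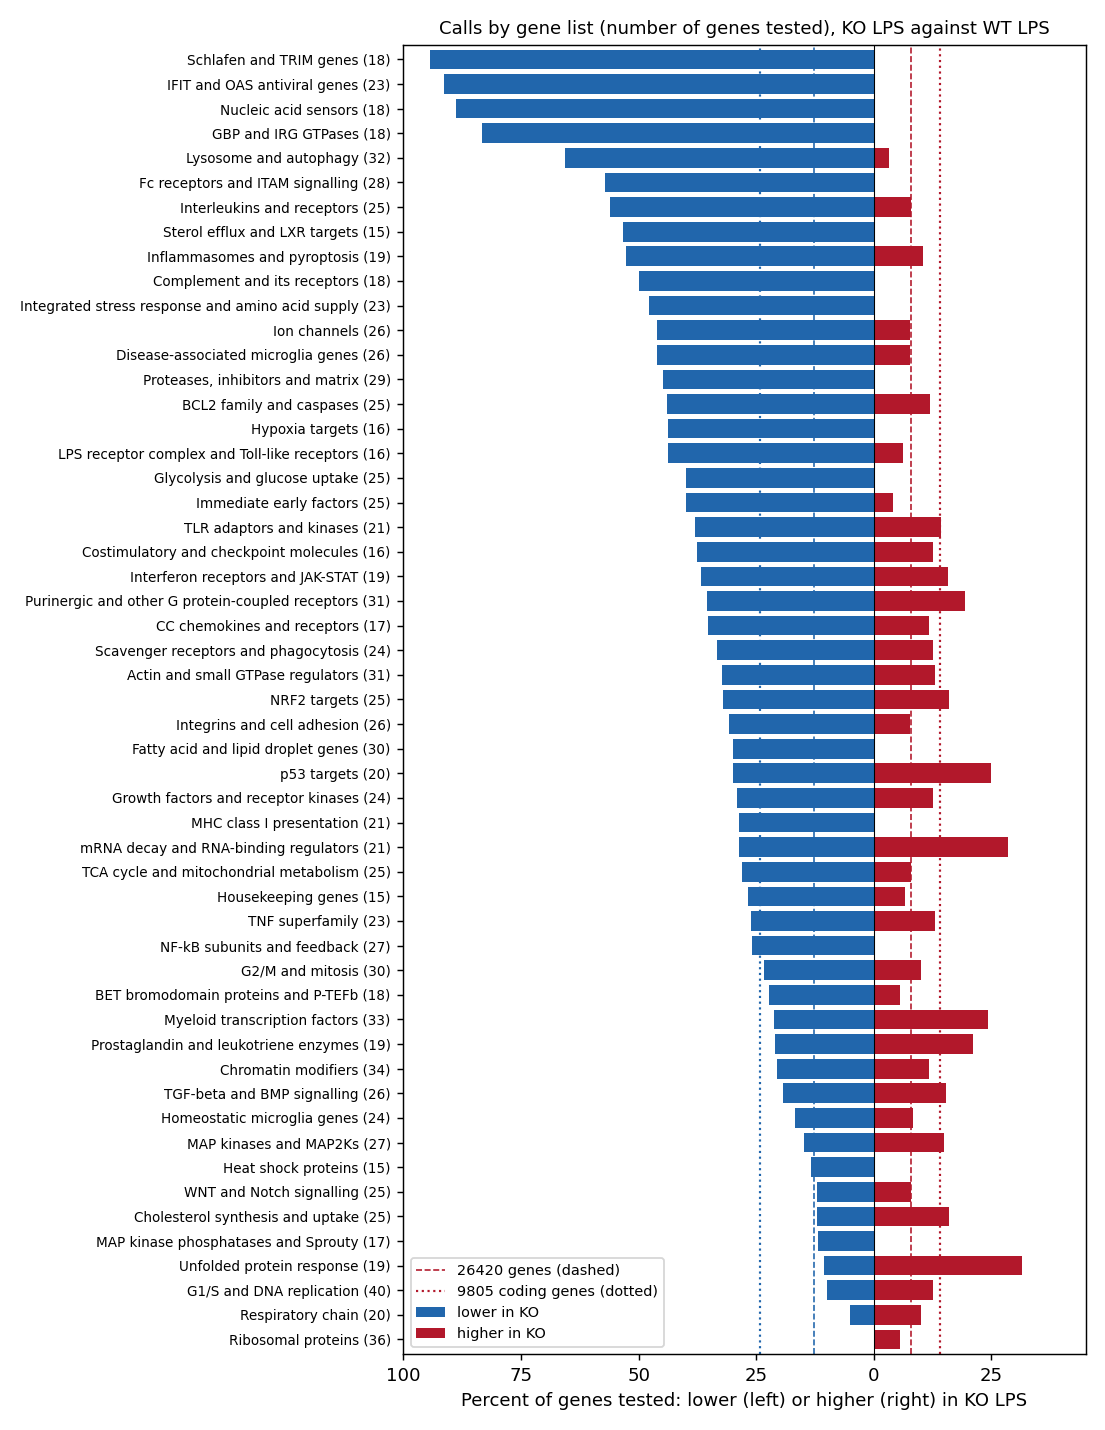
Percent of the measured genes of each list that were called lower (blue, to the left) or higher (red, to the right) in KO LPS against WT LPS, for the 53 lists with at least 15 genes tested (number tested in parentheses); dashed lines give the shares of all 26420 genes, 12.7% lower and 7.87% higher, and dotted lines those of the 9805 expressed protein-coding genes, of which 2385 were lower and 1374 higher. The Schlafen and TRIM, IFIT and OAS, nucleic acid sensor and GBP lists lie farthest left, and ribosomal proteins have no lower gene.

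In 3 lists of surface receptors and effector genes of phagocytes, the share of lower genes was above the 24.3% of expressed protein-coding genes. Of 28 Fc receptor and ITAM signalling genes 16 were lower and none higher (median log2 fold change -0.80). Treml2, a receptor of the TREM cluster, was at 45.9, 49.5 and 43.7 CPM in WT, against 9.89, 10.9 and 8.43 CPM in KO (-2.25 ± 0.11, edgeR adjusted p = 1.28e-07). Clec4e, the receptor Mincle for mycobacterial glycolipid, was at 663.3 ± 73.1 and 289.2 ± 56.1 CPM, and Pilra, an inhibitory receptor, at 40.7 ± 7.82 and 10.9 ± 6.79 CPM. Of 18 complement genes and receptors 9 were lower and none higher (-1.19), among them C1ra, a protease of the first component, at 17.4 ± 1.58 and 3.73 ± 0.726 CPM. Pilra and C1ra share 28.52% and 59.64% of their 31-base words with other genes, so C1ra cannot be separated from its near copy with certainty. Without KO LPS replicate 2, 1 complement gene was called higher. Complement C3 did not pass the test (271.8 ± 40.3 and 299.5 ± 54.8 CPM). Of 29 proteases, inhibitors and matrix genes 13 were lower and none higher (-0.17). Adam8, a membrane metalloproteinase, was at 140.6 ± 11.2 and 19.6 ± 5.15 CPM (-2.84 ± 0.19, adjusted p = 1.31e-06) and Adamts1 at 116.3 ± 3.33 and 41.2 ± 5.64 CPM (-1.50). Flt1, a receptor for vascular endothelial growth factor, was at 325.6 ± 13.6 and 66.6 ± 13.6 CPM (-2.29 ± 0.15). The summed level of 7 endothelial markers was 368.7 to 386.3 CPM in WT and 163.2 to 185.5 CPM in KO (library-total CPM), with Flt1 itself the only one of the 7 called. Pecam1, Cdh5, Cldn5 and Tek were under 1 CPM in all 6 libraries.

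Counts of lower genes here are to be read beside the 24.3% of expressed protein-coding genes called lower under LPS and 23.4% in medium. Of 32 lysosome and autophagy genes 21 were lower and 1 higher (median log2 fold change -0.52). The higher gene was not called without KO LPS replicate 1, KO LPS replicate 3, WT LPS replicate 1 or WT LPS replicate 2. Igf2r, which carries lysosomal enzymes to their compartment, was at 209.3, 215.2 and 288.9 CPM in WT, against 39.3, 33.2 and 53.3 CPM in KO (-2.50 ± 0.22, edgeR adjusted p = 1.31e-05). Grn, the gene of progranulin, was at 810.4 ± 52.4 and 345.3 ± 56.8 CPM, and Npc2, a cholesterol carrier of the lysosome, at 496.0 ± 23.1 and 239.6 ± 62.8 CPM. Of 23 genes of the integrated stress response and amino acid supply 11 were lower and none higher (-0.49). Trib3, a pseudokinase target of ATF4, was at 59.1, 69.8 and 61.3 CPM in WT, against 20.3, 11.2 and 18.4 CPM in KO (-1.93 ± 0.31, adjusted p = 0.00112), Nupr1 was at 25.2 ± 2.76 and 7.92 ± 2.36 CPM, and Slc7a11, the cystine transporter, at 869.0 ± 28.3 and 361.8 ± 43.6 CPM. Of 25 glycolysis and glucose uptake genes 10 were lower and none higher (-0.37), with 6 lower without WT LPS replicate 3 and 1 higher without KO LPS replicate 1. Hk3, a hexokinase of myeloid cells, was at 315.8 ± 14.8 CPM in WT against 80.9 ± 8.48 CPM in KO (-1.97 ± 0.09, adjusted p = 1.13e-07). Among lipid genes, the droplet protein gene Plin2 was at 137.2 ± 19.2 and 43.4 ± 1.24 CPM and Stard4, a sterol carrier, at 58.5 ± 6.23 and 17.5 ± 1.47 CPM (-1.66 and -1.74). Plin2 shares 5.16% of its 31-base words with other genes. Of 25 cholesterol synthesis and uptake genes 4 were higher and 3 lower under LPS (-0.04), while in medium 17 were lower and none higher (-0.46), and the test of the difference between the conditions was called for 6 of them, all higher. Under LPS 2 of these genes were higher without KO LPS replicate 3, WT LPS replicate 2 or WT LPS replicate 3, and 6 were lower without KO LPS replicate 2.

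Gains were more frequent than losses in the unfolded protein response, with 6 of 19 genes higher and 2 lower (median log2 fold change 0.19), and all of these differences were below 2-fold. With 1 library left out, 4 to 7 of these genes were called higher, and 1 was lower when any library other than WT LPS replicate 2 was left out. Manf, a secreted chaperone of the endoplasmic reticulum, was at 55.7 ± 6.61 CPM in WT against 82.3 ± 2.69 CPM in KO (0.56 ± 0.09, edgeR adjusted p = 0.000729), and Dnajc3, a co-chaperone, at 24.3 ± 1.38 and 37.2 ± 0.577 CPM (0.62 ± 0.11, adjusted p = 0.00181). Among myeloid transcription factors 8 of 33 were higher and 7 lower (0.06), and 4 were lower without KO LPS replicate 2. Bcl6, a transcriptional repressor, was at 10.2 ± 2.13 CPM in the WT LPS libraries and at 52.5 ± 5.51 CPM in the KO LPS libraries. All KO values lay well above all WT values (2.36 ± 0.14, adjusted p = 6.27e-07). Cebpe, a factor of late granulocyte development, was at 14.9 ± 0.872 and 2.58 ± 0.613 CPM (-2.53 ± 0.17). Map3k5, also called ASK1, a kinase upstream of p38 and JNK, was higher, at 25.8 ± 3.17 and 64.5 ± 14.1 CPM (1.32 ± 0.15, adjusted p = 8.65e-05) and so was Map2k3, which activates p38, at 69.6 ± 5.87 and 124.6 ± 6.75 CPM (0.84 ± 0.08, adjusted p = 2.22e-05). In the list of MAP kinases and MAP2Ks 4 of 27 were higher and 4 lower (0.02). Zc3h12c, a ribonuclease that degrades inflammatory transcripts, was 2.05-fold higher, while Zfp36, which targets transcripts with AU-rich elements, was 2.19-fold lower. Manf and Zfp36 share 7.25% and 6.57% of their 31-base words with other genes. Among regulators of chromatin and of Notch and Ras signalling, Kdm4a, a histone demethylase, was at 126.8 ± 7.35 and 245.8 ± 18.9 CPM (0.95 ± 0.08, adjusted p = 8.72e-06), and Setdb2, a SET-domain protein induced by interferon, at 64.8 ± 2.25 and 24.0 ± 4.24 CPM (-1.43 ± 0.11). Ralgds, an exchange factor for Ral GTPases, was at 114.2 ± 3.33 and 12.7 ± 2.33 CPM (-3.17 ± 0.13, adjusted p = 2.89e-08), and the receptor gene Notch1, with 9.4% of its 31-base words shared, at 31.2 ± 4.54 and 5.79 ± 1.09 CPM. Of 36 ribosomal protein genes 2 were higher and none lower. Neither higher one was called without KO LPS replicate 1, WT LPS replicate 2 or WT LPS replicate 3, 1 was called without KO LPS replicate 3 or WT LPS replicate 1, and 1 gene was lower without WT LPS replicate 2. Mki67, a marker of dividing cells, was at 635.4 ± 69.5 and 594.8 ± 34.1 CPM (adjusted p = 0.775).

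The same line difference was measured in medium, in libraries that the LPS comparison does not share. There 1818 genes were higher and 3256 lower in KO (edgeR; 6.88% and 12.3%). The 2234 genes lower in both make up 66.7% of those lower under LPS and 68.6% of those lower in medium, and the 877 genes higher in both make up 42.2% and 48.2%. Of the genes higher in medium 362 were processed pseudogenes, and 6.63% of these were also higher under LPS. For protein-coding genes the shares higher in both were 42.6% and 62.1%. Processed pseudogenes took 6.58% to 13.05% of counts in WT medium, 12.76% to 14.26% in KO medium and 6.28% to 7.35% in the LPS libraries. The part of this in the medium comparison was not tested. 20 genes were higher under LPS and lower in medium, and 12 the reverse. Slpi, Naip1 and Irak3 were lower in medium as well, with log2 fold changes of -5.60, -4.36 and -4.55 there, and so were Igsf6 at -4.85, Lyz2 at -4.51 and Hk3 at -2.14. Of the genes called under LPS, 1105 lower and 1183 higher ones did not pass the test in medium. Whether the difference depended on treatment was tested by the interaction, the line difference under LPS minus that in medium, which was called for 1.60% of genes, higher for 0.693% and lower for 0.908%. Among genes lower under LPS it was called lower for 225 and higher for 39, and among genes higher under LPS it was called higher for 98 and lower for 5.

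In medium Cish was at 0.711 CPM in WT against 0.717 CPM in KO, and its interaction was -3.97 (edgeR adjusted p = 0.000118). Gbp5 had a log2 fold change of -0.35 in medium (adjusted p = 0.465, interaction -3.22, adjusted p = 0.00428) and Hdc was at 0.331 and 0.363 CPM (interaction -2.98, adjusted p = 0.0034). For these 3 genes the lines differed by the test under LPS and did not pass it in medium. Bcl6 in medium was at 32.0 CPM in WT against 28.7 CPM in KO, so that the WT level was lower under LPS than in medium and the KO level higher (interaction 2.52, adjusted p = 0.000166). Cx3cl1 was at 1.33 and 5.00 CPM in medium, already higher in KO (1.92), and its interaction was 2.25 (adjusted p = 0.00769). P2rx1 was at 0.496 and 0.660 CPM in medium (interaction 2.45, adjusted p = 0.00719). The opposite pattern, a line difference that was smaller under LPS, was measured for Adam8, with a log2 fold change of -5.18 in medium (interaction 2.34, adjusted p = 0.0018), for Il1rn, with 187.6 and 10.3 CPM (1.84, adjusted p = 0.00719), and for Acod1, with 45.8 and 3.62 CPM (3.55, adjusted p = 0.000567). Of the genes at least 2-fold lower under LPS with a lower interaction, 165 promoter windows were available, and 17.0% of them held the interferon-stimulated response element core, 13.3% the kB consensus, 10.9% the gamma-activated sequence, 11.5% the AP-1 site and 2.42% the sterol element TCACNCCAC (1.21% of the windows of genes tested).

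**Figure D4:**
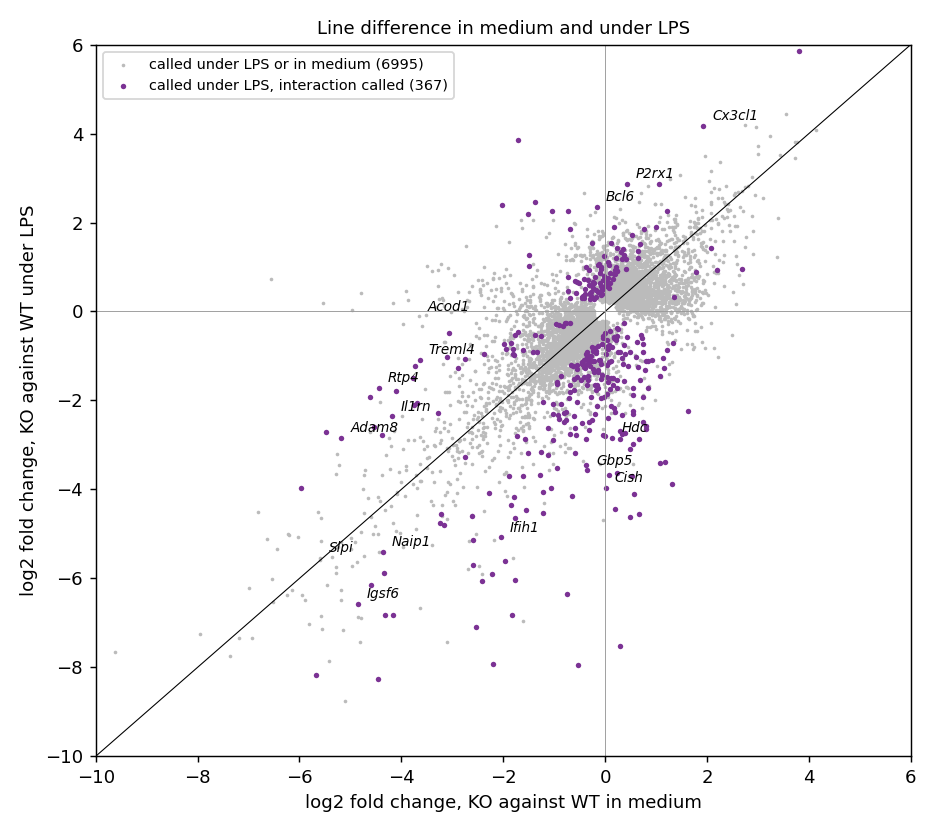
Log2 fold change of KO against WT in medium (x axis) and under LPS (y axis), 1 point per gene called in either; purple points are the 367 genes called under LPS whose interaction was also called, and the line marks equal differences. Slpi lies near the line far from 0, Igsf6 and Naip1 below the line and low in both, Cish, Gbp5 and Hdc lie near 0 in medium and low under LPS, and Bcl6 and P2rx1 near 0 in medium and high under LPS.

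The line difference was also uneven across chromosomes, a pattern chosen after its values were seen and described with no test. Over the 9805 protein-coding genes whose log2 CPM averaged 2 or more, assigned to chromosomes by their Ensembl identifier in GENCODE for GRCm38, chromosome 2 had a median log2 fold change of -0.49 under LPS. Of its 798 genes 524 (65.7%) were lower and 17 (2.13%) were higher. On chromosome 6 the median was 0.33, with 207 of 439 genes (47.2%) higher and 7.52% lower. Chromosomes 12 and 13 had medians of -0.33 and -0.23, with 48.1% and 39.1% of genes lower. The other 16 chromosomes had medians between -0.14 and 0.10, and outside the 4 named chromosomes 19.3% of 7822 genes were lower and 14.2% higher. In medium, where no library is shared, the medians were -0.55, 0.27, -0.40 and -0.30 for chromosomes 2, 6, 12 and 13. Relative to the other chromosomes, the median gene of chromosome 2 lay between 0.23 and 0.27 in the WT LPS libraries and between -0.26 and -0.22 in the KO LPS libraries, so the lines did not overlap. With the genes of a chromosome divided into 10 groups of equal size in gene order, the medians along chromosome 2 ran from -0.75 to -0.27, and along chromosome 6 from 0.08 to 0.42. Along chromosome 13 the medians lay between -0.39 and -0.01 except in 1 group, at 0.33. No cause of this pattern was tested.

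**Figure D5:**
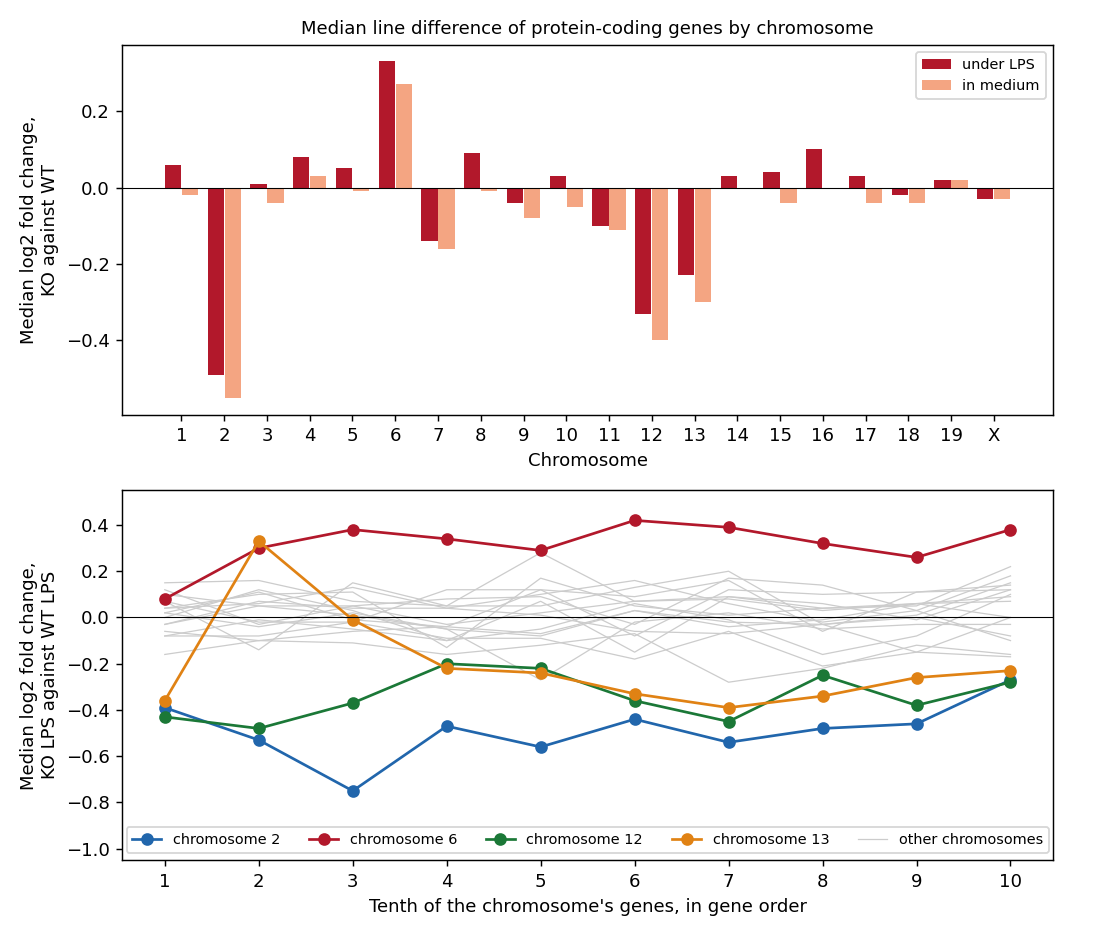
Upper panel, median log2 fold change of KO against WT by chromosome, under LPS (red bars) and in medium (orange bars), over 9805 protein-coding genes; lower panel, median under LPS in each of 10 groups of a chromosome's genes in gene order, with grey lines for the 16 other chromosomes. Chromosomes 2, 12 and 13 lie below and chromosome 6 above the rest in both conditions.

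Several of the genes described are on these chromosomes: Slpi, Ifih1, Il1rn, Trib3, Traf6, Hdc, Ralgds, Ptgds and Notch1 on chromosome 2, C1ra, Clec4e, Usp18 and Hpgds on chromosome 6, Mok, Npc2 and Ighm on chromosome 12, and Naip1 and Hk3 on chromosome 13. Mok, at -0.72, was thus measured beside a chromosome median of -0.33. With the 4 chromosomes left out before filtering and scaling, 1426 genes were higher and 2613 lower of 21091 tested, and the counts of lower genes were 19 in the IFIT and OAS list, 15 in the GBP and IRG list, 4 in the ISG15 and PARP list and 7 in the Toll-like receptor list. The integrated stress response list then had 7 lower genes in place of 11, since members on the 4 chromosomes were no longer tested.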

How the data were processed

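RNA from 12 libraries of a mouse microglial line, 3 per line and treatment, was sequenced as stranded total RNA after removal of ribosomal RNA, per the labels' protocols. The authors deposited whole-number read counts per Ensembl gene for 55416 identifiers. FastQC 0.11.9, Trimmomatic 0.39, STAR 2.7.9a, featureCounts, DESeq2 1.32.0 and GRCm39 are named in the submitters' processing notes. The strand setting of the counting is not given in the sources used here, so a gene and its antisense partner may share reads. Symbols were found for 52135 identifiers, and the 3281 without one stayed in the tests.

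Counts were fitted in edgeR 4.0.16 (limma 3.58.1, R 4.3.3) with TMM scaling, filterByExpr at a minimum count of 10 and the robust quasi-likelihood test, with 4 group means over all 12 libraries, which then share 1 estimate of the spread. Contrasts were KO minus WT under LPS, the same in medium, and their difference, each adjusted by Benjamini-Hochberg over 26420 genes and called under 0.05. The SE is that of the log2 fold change, and CPM values are TMM-scaled with their SD over 3 libraries. Total counts were 39.7 to 72.9 M, and the scatter among libraries of 1 group also bears on the precision. Alternatives were RLE scaling, library size alone, other low-count filters, DESeq2 1.42.0, a replicate block, the 6 LPS libraries alone, protein-coding genes alone, the 50 most abundant genes left out, robust estimation off and each LPS library left out.

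Named genes were Mok; the 15 called genes farthest from 0 in each direction among those with a regular symbol, an average log2 CPM of 2 or more and groups that do not overlap; from each of 65 gene lists the 3 called members that changed most, the largest change in the other direction and the most abundant member; and the 5 most abundant called genes and the 5 largest interactions in each direction. The members and lists were chosen with earlier results of these data known. The fit was tested on simulated data with known changes. The percent of a gene's 31-base words found in another gene's transcripts is given where it is at least 5%. Promoter windows are from RefSeq on GRCm38.p6, and no coordinates on GRCm39 are given.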

Additional observations from a re-analysis of the deposited data

Results flagged for a closer look

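For 28 of the genes named above, the difference between KO and WT under LPS was itself different from that in medium by the interaction test (edgeR, adjusted over 26420 genes). The interaction was called for 1.60% of all genes tested. Genes were named in part for the largest called interactions, so some of the 28 are there by choice. All of the values that follow are the log2 fold change of KO against WT under LPS minus that in medium, and both comparisons have 3 libraries per group. It was higher for 10 genes. The values were 3.55 for Acod1, 2.52 for Bcl6, 2.45 for P2rx1, 2.34 for Adam8, 2.25 for Cx3cl1 and 1.84 for Il1rn. Ripk2 was at 1.18, Kdm4a at 1.05, Flt1 at 0.99 and Map2k3 at 0.64.

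For 18 genes the difference was lower. Cish was at -3.97, Gbp5 at -3.22, Il27 at -3.13, Ifih1 at -3.02, Hdc at -2.98, Isg20 at -2.91 and Gbp7 at -2.38. Usp18 was at -1.94, Ralgds at -1.92, Igsf6 at -1.72, Notch1 at -1.67 and Csf3r at -1.66. Treml2 was at -1.49, Cd274 at -1.47, Setdb2 at -1.36, Stat2 at -1.21, Naip1 at -1.04 and Plin2 at -0.97.

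With 1 LPS library left out, 20 of the 28 kept the call each time and 8 lost it at least once. Cd274 lost it without WT LPS replicate 1 (adjusted p = 0.0557), Ifih1 without KO LPS replicate 3 (0.0634) and Naip1 without KO LPS replicate 1 (0.0504). Stat2 lost it without WT LPS replicate 1, 2 or 3 (0.0638, 0.0704 and 0.0531). Igsf6 lost it without KO LPS replicate 1 or 3 (0.062 and 0.0511) or WT LPS replicate 1 or 2 (0.0904 and 0.0871), and Map2k3 without the same 4 libraries (0.0532, 0.0677, 0.0685 and 0.0564). Flt1 lost it without every LPS library other than KO LPS replicate 2 (adjusted p from 0.0505 to 0.0985), and Csf3r without every LPS library other than KO LPS replicate 1 (0.0543 to 0.127).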

How the results depend on the processing

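No named gene called under LPS changed direction under those of the 17 alternatives in which it was tested. Over all genes, none called in the main fit was called in the other direction by an alternative. The counts of genes higher and lower under LPS ranged from 1382 to 1914 and from 2683 to 3196 with 1 library left out, and from 1456 to 2922 and from 2936 to 3872 under the other settings with all chromosomes. Genes higher and lower in both conditions numbered 648 to 921 and 1859 to 2262 with 1 library left out. The named genes with a called interaction, 53 of 278, then numbered 32 to 66, and some of these genes were named for their interaction. With chromosomes 2, 6, 12 and 13 left out, an alternative chosen after seeing the data, 540 genes were higher in both conditions against 877. DESeq2 called 2029 genes higher and 3492 lower. Of 240 named genes called under LPS, 196 kept the call without each library, 44 lost it without at least 1 and 20 lost it under another setting. The cause was not tested. Many of these genes were named for large changes, so they do not stand for all called genes. Without WT LPS replicate 1, 33 named genes lost the call. Over all genes, 1344 of the 2080 higher and 2692 of the 3351 lower ones kept it there.

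Libraries share replicate numbers across the lines, so a replicate block was fitted. It gave 2542 genes higher and 3872 lower, of which 2033 and 3321 were also called without it, 1204 and 2678 genes in both conditions and 72 named genes with a called interaction, and 17 in place of 10 lower genes in the glycolysis list. Deviations of same-numbered LPS libraries from their group means correlated at 0.27, 0.30 and -0.04 for numbers 1, 2 and 3. Numbers 1 and 2 correlated best with their own number and number 3 did not. In medium the same values were 0.69, 0.31 and -0.55. With 3 libraries per group these values cannot decide whether same-numbered libraries belong together, and that was not tested. All LPS libraries held 43.5 M counts or more, and no further limit from depth was tested.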
